A study of Sus scrofa with 6 samples.

Results

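Cadherins are calcium-dependent adhesion proteins, and 8 of their genes are described here in the abdominal aorta of pigs: CDH20, CDH19, CDH2, CDH4, CDH6, CDH11, CDH13 and CDH15. Each has 1 row among the 30477 genes of the expression table and was found by its name. CDH20 was taken up because it was among the genes with the largest fall under the diet in these same libraries, so its values are a description without a test. The 7 other cadherins were chosen by name as cadherins known from nerve, muscle or fibroblasts, to ask whether the fall of CDH20 was shared by them. The libraries came from male Wuzhishan miniature pigs, 3 fed normal chow (the NC group) and 3 fed a diet high in fat, cholesterol and fructose (the HFCF group), each for 6 months. The labels give an age of 3 to 4 months for pigs of both groups, and the methods of the study give an older age at purchase. No allele, transgene or drug is named for either group, and the diet as a whole is the only stated difference, so its components cannot be told apart.

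Classical cadherins bind the same or a related cadherin on the neighbouring cell with their outer domains, and inside the cell they hold p120-catenin, beta-catenin or plakoglobin and, through alpha-catenin and vinculin, the actin skeleton. Type I cadherins such as CDH2 (N-cadherin), CDH4 (R-cadherin) and CDH15 (M-cadherin) differ from type II cadherins such as CDH6, CDH11, CDH19 and CDH20 in the contacts of the outermost domain. CDH13 (T-cadherin) stands apart, since it is anchored by a lipid and has no inner domain for catenins. In the artery wall, cadherins join smooth muscle cells and endothelial cells, while the nerves, fat and connective tissue around the vessel bring cadherins of their own.

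Levels are given as FPKM, fragment numbers divided by gene length and library size, as deposited by the authors. FPKM is scaled by length, so genes can be compared with each other within a pig. Between pigs it is relative, and a comparison depends on the scaling. The FPKM of all genes summed to between 272207 and 287141 in the NC pigs and between 330222 and 338690 in the HFCF pigs. The depth of the libraries is not given in the sources used here, but the spacing of FPKM values near 0 in single-transcript genes gave depths of 1.09 and 1.37 in NC2 and NC3 and of 1.03 to 1.07 in the HFCF pigs, relative to NC1. Differences are HFCF minus NC means of log2(FPKM + 0.1), a scale that understates the change of low genes, and were tested with limma over the 15384 genes with a mean of at least 0.1 FPKM. A gene is called when its Benjamini-Hochberg adjusted p over all these genes is under 0.05. By this rule 22.8% of all tested genes were higher and 6.16% were lower in the HFCF group, 28.9% in either direction, and the median log2 difference of all tested genes was 0.32. Higher genes made up 78.7% of the calls, a share that was 50.7% with median-ratio scaling, 49.5% with quantile normalization and 58.2% after rescaling to TPM, so small differences depend on the scaling. For any gene taken alone, the smallest p that exact permutation of 3 and 3 pigs can give, two-sided, is 0.1. The labels name the samples as separate libraries, and p-values measure the spread between these libraries. RNA came from whole tissue, so fewer cells of a type and less RNA per cell cannot be told apart.

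CDH20 (ENSSSCG00000004903), a type II cadherin known from the developing nervous system, was present in every NC pig and close to absent in every HFCF pig. It had 2.80 FPKM in NC1, 1.55 in NC2 and 8.06 in NC3, a mean of 4.14 ± 3.45 (SD, n = 3). The HFCF values were 0.0182 FPKM in HFCF1, 0 in HFCF2 and 0.0175 in HFCF3, with a mean of 0.0119 ± 0.0103 (SD, n = 3). The groups did not overlap, as in 12.1% of all tested genes in this direction, and the lowest NC value was 85.3 times the highest HFCF value. The log2 difference was -4.93 with 0.1 added to each value, -7.37 with 0.01 added and -2.13 with 1 added, so its size is set largely by that addition. Once multiplied by the relative depths, HFCF1 and HFCF3 held the same value, 0.0186, as libraries with equal numbers of fragments would, and NC2, NC1 and NC3 held 90.7, 150.3 and 592.4 times that value. The NC pigs also differed from each other by 5.20 times, NC3 being the highest. Leaving out NC3 moved the NC mean most and left a log2 difference of -4.29.

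CDH19 (ENSSSCG00000004885) is the type II cadherin best known from Schwann cell precursors and glia of peripheral nerve. Its values were 0.0881, 0.311 and 0.0044 FPKM in NC1, NC2 and NC3. The HFCF pigs had 0.471, 0.244 and 0.305 FPKM. The groups overlapped through NC2, and the highest value was in HFCF1. The mean was 0.135 ± 0.159 in the NC group and 0.340 ± 0.118 in the HFCF group (SD, n = 3 each), a log2 difference of 1.10 with a 95% interval from -0.22 to 2.42 (adjusted p = 0.18, limma). The difference was 0.63 without NC3, the pig with the lowest value, and was positive in all 14 alternatives, from 0.25 to 2.14. Each HFCF pig was above the NC mean, and a fall to 0 in every HFCF pig would have given a value below this interval.

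Neither of the measurable type I cadherins was called. CDH2 (ENSSSCG00000003722), the N-cadherin of neurons, heart muscle and vascular smooth muscle, had 0.817, 0.660 and 1.11 FPKM in the NC pigs. In the HFCF pigs it had 0.466, 1.09 and 1.23 FPKM. The lowest and the highest of the 6 values were both in HFCF pigs. The log2 difference was 0.03, with an interval from -0.92 to 0.98 (adjusted p = 0.96, limma), and its sign turned with each of the 3 scalings. A fall to 0 in every HFCF pig would have given -3.24, which lies outside this interval. CDH4 (ENSSSCG00000025784), the R-cadherin first known from retina, had 0.101, 0.0995 and 0.113 FPKM in the NC pigs and 0.113, 0.0674 and 0.181 FPKM in the HFCF pigs. It was nearly level among the NC pigs, and the HFCF values lay on both sides of them. Its log2 difference was 0.08, from -0.82 to 0.98 (adjusted p = 0.898, limma), and this sign too turned with the 3 scalings. A fall to 0 in every HFCF pig would have given -1.03, below that interval but close to its lower end.

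CDH15 (ENSSSCG00000002642), the M-cadherin of skeletal muscle and its satellite cells, was listed at 0 in all 6 pigs. The satellite cell and myogenic genes PAX7, MYOD1 and MYF6 were also listed at 0 in all 6. CDH6 (ENSSSCG00000032931), a type II cadherin of kidney and brain, had 0.0454, 0.0802 and 0 FPKM in the NC pigs. The HFCF pigs had 0.138, 0.0418 and 0 FPKM. Each group held 1 pig at 0, and the groups overlapped over most of their range. Neither gene reached the mean of 0.1 FPKM needed for the test, and with no filter CDH6 had a log2 difference of 0.12, from -0.77 to 1.01 (adjusted p = 0.838, limma, 21816 genes).

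CDH11 (ENSSSCG00000002795), the type II cadherin of fibroblasts and bone-forming cells, went the other way from CDH20. It had 8.03, 4.93 and 11.9 FPKM in the NC pigs and 27.6, 26.1 and 16.1 FPKM in the HFCF pigs. The groups did not overlap, as in 36.1% of all tested genes in this direction, NC3 being the highest NC pig and HFCF3 the lowest HFCF pig. The mean of CDH11 rose from 8.27 ± 3.47 (SD) to 23.3 ± 6.24 FPKM with n = 3 in each group, a ratio of 2.81 and a log2 difference of 1.53 (standard error 0.35, adjusted p = 0.0189, limma), which is 1.21 above the median of all tested genes. The call was lost without NC1 (adjusted p = 0.0649, limma), without HFCF1 (0.0526) or without HFCF2 (0.0568), where fewer pigs were left, while the log2 difference stayed between 1.18 and 1.83 over 15 alternatives. The other fibroblast markers did not rise as a list: of 9, 1 rose, 0 fell and 8 were not called, with a median log2 difference of -0.10, beside 0.32 over all tested genes. The list's 1 rise was that of LUM, a small proteoglycan that organizes collagen, which went from 46.3 ± 13.8 to 176.3 ± 23.2 FPKM (SD, n = 3 each, log2 difference 1.96, adjusted p = 0.00215, limma). COL3A1 and COL1A1, the chains of the main fibrillar collagens, had log2 differences of -0.18 and -0.17 (adjusted p = 0.673 and 0.76, limma).

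CDH13 (ENSSSCG00000002684), the T-cadherin of smooth muscle and endothelium that binds adiponectin and low-density lipoprotein, was the most abundant of the 8 in every pig. It had 71.6, 58.2 and 75.8 FPKM in the NC pigs and 71.3, 77.2 and 48.5 FPKM in the HFCF pigs. The ranges overlapped, and both the highest and the lowest pig were in the HFCF group. The NC mean was 68.5 ± 9.15 and the HFCF mean 65.7 ± 15.2 FPKM (SD, n = 3 each), a log2 difference of -0.08 with an interval from -0.58 to 0.42 (adjusted p = 0.802, limma) that turned to 0.12 without HFCF3. Among adiponectin and its other receptors, 0 of 3 genes were called in limma, where none had an unadjusted p under 0.05 except ADIPOR2 (log2 difference -0.60, adjusted p = 0.101). ADIPOQ, the adipocyte hormone adiponectin, ranged from 1.22 to 59.9 FPKM among the NC pigs and from 0.301 to 4.08 FPKM among the HFCF pigs. The groups overlapped through NC3 (adjusted p = 0.198, limma), and without NC3 ADIPOQ was called lower (adjusted p = 0.0299, limma). With median-ratio scaling 2 of the 3 genes were called lower, the receptors ADIPOR1 and ADIPOR2 and not ADIPOQ.

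**Figure D1:**
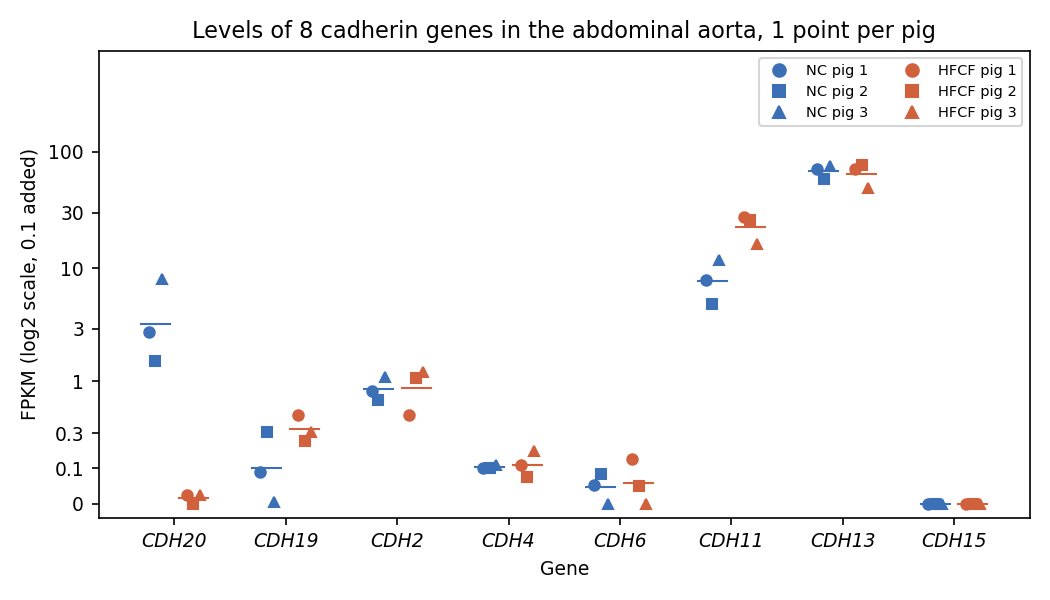
FPKM of the 8 cadherin genes on a log2 scale with 0.1 added, 1 point per pig; short lines are the group means on that scale. CDH20 lies between 1.55 and 8.06 FPKM in the NC pigs and at or below 0.0182 FPKM in the HFCF pigs, CDH11 is higher in each HFCF pig than in any NC pig, and the other genes overlap or are listed at 0.

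The fall of CDH20 was therefore not called in any other cadherin of the group. Of the 7 others, 5 were tested, of which 0 were lower, 1 was higher and 4 were not called by limma, beside 6.16% lower and 22.8% higher among all tested genes. At an unadjusted p under 0.05 the counts were likewise 0 lower and 1 higher, as they were at the thresholds of the study, a ratio above 2 or below 0.5 with that p, which 4.82% of all tested genes passed downwards. The count of 0 lower held in each of 16 alternatives. CDH19 and CDH4, with NC means of 0.135 and 0.104 FPKM, passed the filter on the mean over all pigs only with their HFCF values. A fall to 0 in the HFCF pigs would have left both untested, so the main count could not have shown it for them. With no filter both were kept and neither was called. For each of the 5 tested genes the value that a fall to 0 would give lay below the 95% interval. This covers a complete fall only, not a partial one. For CDH4, near 0.1 FPKM in the NC pigs, the interval reached down to -0.82, beside -1.03 for a fall to 0. A large partial fall of CDH4 was therefore not detectable. CDH6 and CDH15 were at or near 0 in the NC pigs already, so a fall of them was not detectable.

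In the order of their levels in the NC group, CDH13 was followed by CDH11, CDH20, CDH2, CDH19, CDH4, CDH6 and CDH15. The ranges over pigs overlapped between CDH11 and CDH20, between CDH19 and CDH4, and between CDH6 and CDH15, so these neighbours were not apart beyond their spread. In the HFCF group CDH20 was next to last, and its range overlapped those of CDH6 above and CDH15 below, with CDH15 at 0. CDH2 overlapped CDH19 and CDH4 overlapped CDH6 there, and the order of the 7 others by mean was the same in both groups. The levels of all 8 together came to between 65.9 and 96.9 FPKM in the NC pigs and between 66.4 and 104.8 FPKM in the HFCF pigs, which overlap. CDH20 made up 2.35% to 8.31% of that sum in the NC pigs and at most 0.0263% in the HFCF pigs, and CDH11 7.48% to 12.2% and 24.3% to 27.6%. Among the 22 genes named CDH with a number, CDH20 was the seventh by NC mean and the 17th by HFCF mean.

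Among 11 other cadherins of type I and II, 6 were tested, of which 1 was higher, 0 were lower and 5 were not called. Their median log2 difference was 0.27. Over all tested genes the median was 0.32, with 22.8% higher and 6.16% lower. CDH1, the epithelial E-cadherin, rose from 0.129 ± 0.173 to 0.771 ± 0.466 FPKM (SD, n = 3 each, log2 difference 2.06, adjusted p = 0.0455, limma). This call was kept in only 2 of 14 alternatives, with adjusted p from 0.0225 to 0.138 (limma). It was lost with each of the 3 scalings and without any one of the pigs other than NC3. CDH7, the type II cadherin nearest to CDH19 on the chromosome, had 0.132, 0.0827 and 0.276 FPKM in the NC pigs and 0.475, 0.512 and 0.379 FPKM in the HFCF pigs. The groups did not overlap, but the adjusted p was 0.0654 (limma). The most abundant genes not called were CDH5, the VE-cadherin of endothelium (18.8 to 37.4 FPKM in the NC pigs and 15.8 to 46.9 FPKM in the HFCF pigs, log2 difference -0.17), and CDH3, the P-cadherin (11.3 to 26.3 FPKM in the NC pigs and at most 13.8 FPKM in the HFCF pigs, log2 difference -0.84, adjusted p = 0.113, limma). CDH3 shared with CDH20 its highest value in NC3, 26.3 FPKM, and was called lower only with median-ratio scaling (adjusted p = 0.0457).

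Of 9 seven-domain, atypical and desmosomal cadherins with a row, 3 were tested and 0 were called by limma, while 1, CDH23, had an interval that lay below 0 (log2 difference -0.87, from -1.63 to -0.11, adjusted p = 0.0831). CDH23, known from the tip links of hair cells, averaged 10.8 ± 3.89 FPKM in NC pigs and 5.67 ± 1.37 FPKM in HFCF pigs (SD, n = 3 each). It was called lower with each of the 3 scalings and without NC1. DSC2, a desmosomal cadherin, had a log2 difference of 0.18 (adjusted p = 0.776, limma). Of 11 tested protocadherins and FAT, DCHS and CELSR genes, 2 were higher, 1 was lower and 8 were not called. Over all tested genes 22.8% were higher and 6.16% lower, so these counts do not set the list apart. PCDH17, a protocadherin of brain and vessels, rose from 0.121 ± 0.035 to 1.54 ± 0.775 FPKM (SD, n = 3 each, log2 difference 2.80, adjusted p = 0.00455, limma) and was called in all 14 alternatives. PCDH18 rose by 1.19 on the log2 scale (adjusted p = 0.0417, limma), a call kept in 4 of 15 alternatives. That call was lost with each of the 3 scalings and without NC1, NC3 or any one HFCF pig. DCHS1, the ligand of the large cadherin FAT4, fell from 11.2 ± 1.04 to 5.31 ± 1.16 FPKM (SD, n = 3 each, log2 difference -1.08, adjusted p = 0.00958, limma) and was called in all 15. FAT1 and PCDH7, the most abundant of those not called, had log2 differences of -0.60 and -0.65 (adjusted p = 0.0947 and 0.14, limma).

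**Figure D2:**
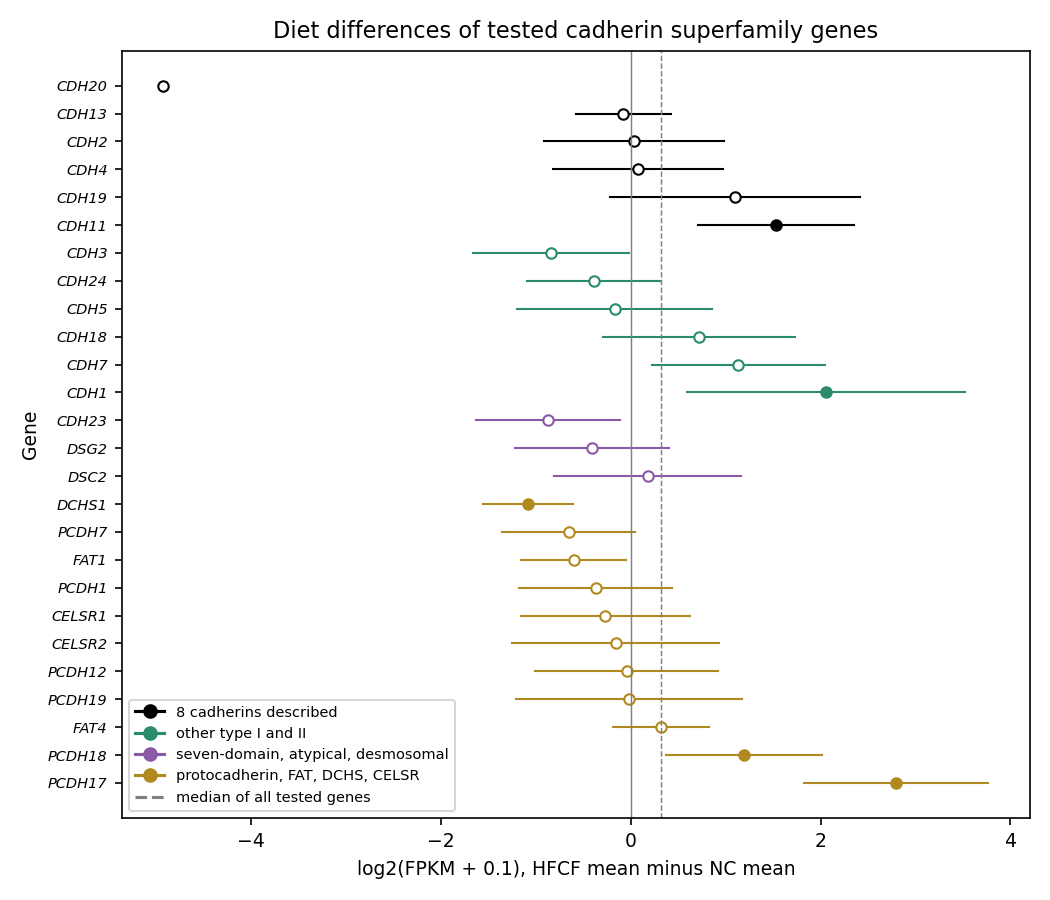
Log2 differences, HFCF minus NC means of log2(FPKM + 0.1), of tested cadherin superfamily genes; horizontal lines are 95% intervals from limma, filled points are called at an adjusted p under 0.05, and CDH20 is drawn without interval or test. CDH20 at -4.93 lies to the left of every other gene drawn, the next being DCHS1 at -1.08, and the dashed line is the median of all tested genes at 0.32.

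Inside the cell, several partners that tie cadherins to actin were lower in the HFCF pigs. Of 11 tested catenins and actin linkers, 3 fell, 0 rose and 8 were not called, with a median log2 difference of -0.49 beside 0.32 over all tested genes. More were lower with another scaling: 7 were called with median-ratio scaling, 6 with quantile normalization and 7 after rescaling to TPM. VCL (vinculin), which anchors junctions and focal contacts to actin, had 196.9, 177.7 and 214.1 FPKM in the NC pigs and 81.7, 92.8 and 92.2 FPKM in the HFCF pigs, a log2 difference of -1.14 (standard error 0.14, adjusted p = 0.00257, limma). CTNNA1 (alpha-E-catenin) had 132.2, 113.9 and 113.4 FPKM in the NC pigs and 51.5, 67.7 and 61.5 FPKM in the HFCF pigs, so that the NC mean was 1.99 times the HFCF mean (adjusted p = 0.00535, limma). The groups stood well apart in both genes, and both were called in all 15 alternatives. AFDN (afadin), which links nectins to the same junctions, fell by 0.57 on the log2 scale (adjusted p = 0.0306, limma) and was called in 9 of 15 alternatives, the call being lost without NC1, NC2, HFCF2 or HFCF3. JUP (plakoglobin) was 63.8 ± 17.4 and 37.3 ± 6.37 FPKM (SD, n = 3 each, adjusted p = 0.0515, limma), without overlap between the groups. CTNNB1 (beta-catenin) was 19.2 ± 2.78 and 23.8 ± 4.08 FPKM (SD, n = 3 each, log2 difference 0.30, adjusted p = 0.245, limma), a sign that turned with median-ratio scaling. The contractile smooth muscle markers described further on were lower in the same pigs, with a median log2 difference of -1.08, and their part in the falls of VCL and CTNNA1 was not tested.

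Among 6 proteases that trim or cleave cadherins, 1 rose, 0 fell and 5 were not called, beside 22.8% higher and 6.16% lower among all tested genes. ADAM10, the sheddase that cuts the outer part of N-cadherin and E-cadherin, had 0.925, 1.22 and 0.859 FPKM in the NC pigs and 5.54, 3.49 and 3.87 FPKM in the HFCF pigs. Each HFCF pig was above each NC pig, and the log2 difference was 1.99 (standard error 0.26, adjusted p = 0.00311, limma), called in all 15 alternatives. FURIN, which removes the cadherin propeptide, was 17.9 ± 1.08 and 17.2 ± 2.34 FPKM, and APH1A, a part of gamma-secretase, was 25.0 ± 0.865 and 29.5 ± 2.55 FPKM (SD, n = 3 each). Their adjusted p-values were 0.759 and 0.221 (limma).

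**Figure D3:**
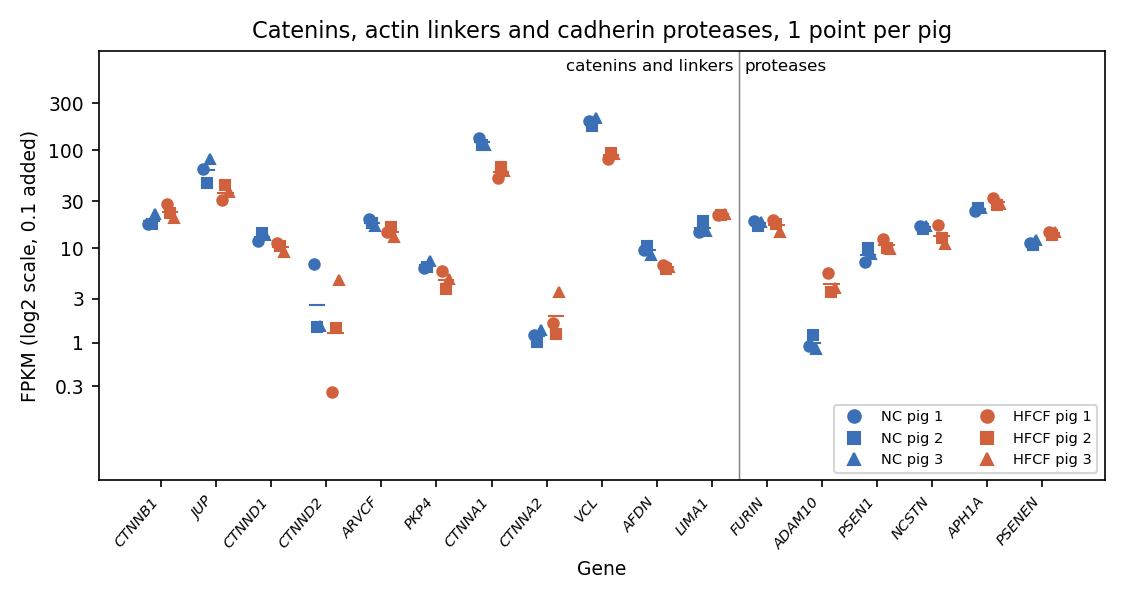
FPKM of tested catenins and actin linkers (left of the line) and of cadherin proteases (right) on a log2 scale with 0.1 added, 1 point per pig; short lines are group means on that scale. VCL and CTNNA1 are lower and ADAM10 is higher in each HFCF pig than in the NC pigs.

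A fall was not called in any of the tested genes beside CDH20 on the chromosome. The gene order was taken from the RefSeq genes of assembly Sscrofa11.1, a later build than the one the methods name, so no coordinates are given, and this look at neighbours was chosen after the values of CDH20 were known. Of the 6 protein-coding genes on each side, 10 of 12 had a row and 8 were tested, of which 1 was higher, 0 were lower and 7 were not called by limma. Over all tested genes 22.8% were higher and 6.16% lower, so counts from so few genes do not set the neighbours apart. MC4R and CPLX4 were listed at 0 in all 6 pigs, so a fall of them was not detectable. PHLPP1 was lower in each HFCF pig than in any NC pig, as were 12.1% of all tested genes (log2 difference -0.41, adjusted p = 0.177, limma). RNF152, a ubiquitin ligase of lysosomes and the next gene on one side, had 1.97, 0.879 and 1.04 FPKM in the NC pigs and 3.66, 1.86 and 1.15 FPKM in the HFCF pigs. These ranges overlapped, with a log2 difference of 0.67 (adjusted p = 0.323, limma). On the other side the gene next to CDH20 had no row and the one after it was MC4R, so no adjacent gene was tested there. The nearest tested gene on that side was PMAIP1, a promoter of apoptosis, with a log2 difference of 1.22 (adjusted p = 0.126, limma). LMAN1, a cargo receptor of the secretory path, rose from 5.71 to 10.7 FPKM (log2 difference 0.91, adjusted p = 0.0107, limma). CDH7 and CDH19 are next to each other on the same chromosome, and 21 protein-coding genes lie between CDH7 and CDH20.

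**Figure D4:**
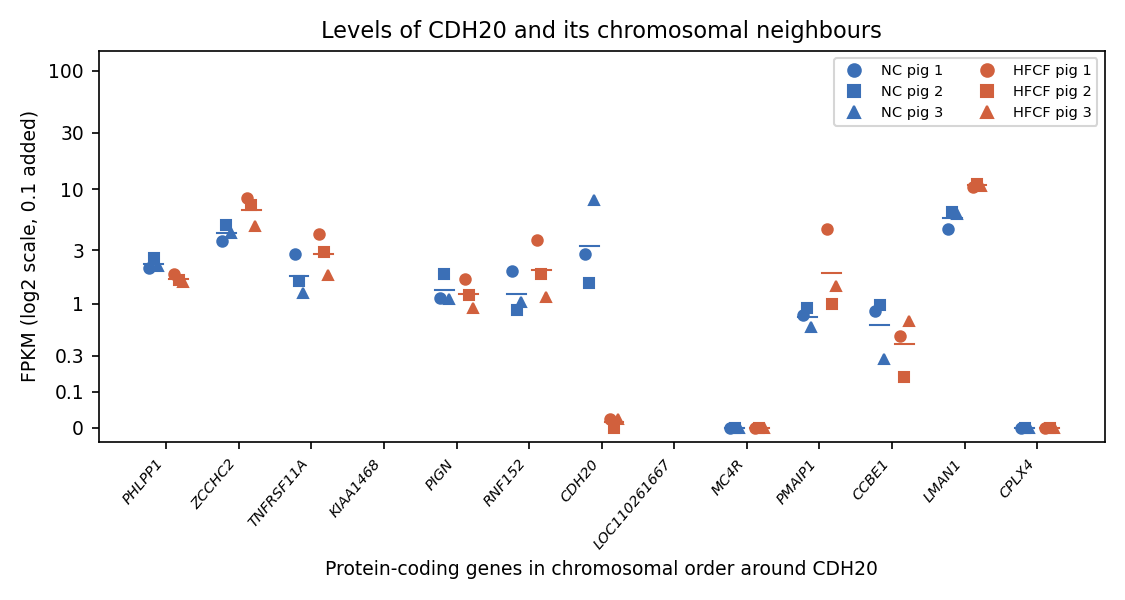
FPKM of CDH20 and the 6 protein-coding genes on each side of it in chromosomal order, on a log2 scale with 0.1 added, 1 point per pig; short lines are group means on that scale, and genes without points were not matched. CDH20 is the gene at which the NC and HFCF points are farthest apart, and RNF152 beside it overlaps between the groups.

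By Pearson's correlation with CDH20 over the 6 libraries on the log2 scale, the most similar of 9581 genes with a symbol and a mean of at least 1 FPKM were TTC7B (r = 0.998), WDR1 (0.997), BICRA (0.997), DVL3 (0.996) and PIP4K2C (0.996). The 6 points share the split between the diets, so these are descriptions. Their falls were far smaller: TTC7B had 25.6, 22.5 and 29.7 FPKM in the NC pigs and 13.8, 14.0 and 14.7 FPKM in the HFCF pigs, a log2 difference of -0.86. WDR1 had a log2 difference of -0.82, BICRA of -0.93, DVL3 of -0.82 and PIP4K2C of -1.46. All 5 were highest in NC3 and lowest in NC2 within the NC group, as CDH20 was. They were picked for their correlation over these same pigs, so this order is no further likeness. Among the cadherins described here, r with CDH20 was highest for CDH13 (0.26) and lowest for CDH19 (-0.82).

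Markers of the cells that could carry these cadherins moved in different directions. Schwann cell markers did not fall with CDH20: of 17 tested, 2 rose, 0 fell and 15 were not called. Their median log2 difference was 0.50. Over all tested genes the median was 0.32, with 22.8% higher and 6.16% lower. With median-ratio scaling 1 of the 17 was called lower. Their summed level was 84.1 to 110.3 FPKM in the NC pigs and 111.8 to 145.1 FPKM in the HFCF pigs. SOX10, the defining factor of glia of the nerve, was 1.01 ± 0.535 and 1.55 ± 0.993 FPKM (SD, n = 3 each, adjusted p = 0.539, limma). PMP22, a myelin protein of several tissues and the most abundant of the list, had a log2 difference of -0.15 (adjusted p = 0.653, limma). The rises were those of ERBB3, the neuregulin receptor that epithelial cells also carry (14.5 ± 1.07 to 30.6 ± 2.62 FPKM, SD, n = 3 each, adjusted p = 0.00299, limma), and L1CAM, an adhesion molecule (8.37 ± 3.09 to 21.8 ± 7.58 FPKM, SD, n = 3 each, adjusted p = 0.0328, limma). Without these 2 genes, left out after their values were seen, the other 15 summed to 83.7, 73.4 and 65.7 FPKM in the NC pigs and to 85.6, 65.1 and 66.6 FPKM in the HFCF pigs, which overlap. The call of L1CAM was kept in 6 of 15 alternatives. It was lost with each of the 3 scalings and without NC2, NC3, HFCF1 or HFCF2. Of 5 tested neuron markers and 5 tested melanocyte markers, 0 fell (1 neuron marker, PRPH, with median-ratio scaling or quantile normalization). PRPH was lower in each HFCF pig than in any NC pig, as were 12.1% of all tested genes (log2 difference -0.70, adjusted p = 0.1002, limma). SNAP25 had at most 0.052 FPKM in the NC pigs, so a fall of it was not detectable. TH and DBH had 0.449 and 0.403 FPKM in NC1 and 0 in every other pig, and were not tested. The rise of MITF, a factor that macrophages also express, was the 1 call among the tested neuron and melanocyte markers (log2 difference 1.39, adjusted p = 0.0296, limma). It was called in 7 of 15 alternatives and lost with each of the 3 scalings and without NC1, NC2, HFCF1 or HFCF2. MLANA, a melanocyte marker, had 0, 0 and 0.0995 FPKM in the NC pigs and 2.59, 8.03 and 0.131 FPKM in the HFCF pigs (log2 difference 3.77, adjusted p = 0.0535, limma). PMEL and TYR had log2 differences of -0.04 and -0.84. The melanocyte sum was 1.79 to 3.62 FPKM in the NC pigs and 4.21 to 13.9 FPKM in the HFCF pigs. Of this, MITF alone gave 1.41, 2.04 and 3.02 FPKM in the NC pigs and 8.18, 5.51 and 3.81 FPKM in the HFCF pigs.

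Skeletal muscle markers, beside which CDH15 was listed at 0, gave 7 tested genes of which 1 fell, the DES gene of desmin, which smooth muscle also expresses (1009 ± 298.8 to 361.7 ± 112.5 FPKM, SD, n = 3 each, adjusted p = 0.0124, limma). The other 14 genes with a row summed to 1.49 to 6.45 FPKM in the NC pigs and to 1.01, 1.02 and 23.6 FPKM in the HFCF pigs, with the highest in HFCF1. Among them CKM was not called, at a log2 difference of -1.55 (from -2.90 to -0.19, adjusted p = 0.0829, limma). Its groups overlapped through NC3, and it was called lower without NC3 and with quantile normalization. Contractile smooth muscle markers, which define the media of this vessel, were present at high levels and mostly lower in the HFCF group. Of 9, 6 fell, 0 rose and 3 were not called, beside 6.16% lower and 22.8% higher among all tested genes. Their sum was 15916 to 22734 FPKM in the NC pigs and 8109 to 12913 FPKM in the HFCF pigs. The largest falls were those of SMTN (smoothelin, log2 difference -1.37), KCNMB1 (a subunit of the BK channel, -1.32) and ACTG2 (gamma smooth muscle actin, -1.31), while TAGLN and LMOD1, at -0.60 and -0.72, were not called (adjusted p = 0.201 and 0.176, limma). The count of 6 was 1 without NC1, where only the call of KCNMB1 was left, and 3 without NC2, HFCF1 or HFCF2. Over 15 alternatives KCNMB1 was called in 15, SMTN in 14, MYH11 in 13, ACTG2 and CNN1 in 9 and ACTA2 in 8. The log2 differences of these 6 genes were below 0 in all 15.

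Macrophage markers rose in 8 of 8 genes, with a summed level of 34.3 to 37.9 FPKM in the NC pigs and 424.7 to 1034 FPKM in the HFCF pigs, HFCF1 being the highest. MSR1, AIF1 and CD68 had the largest log2 differences, 5.22, 5.13 and 4.99 (adjusted p = 0.00272, 0.000555 and 0.000645, limma). Of 7 tested endothelium markers and 6 tested adipocyte markers, 0 were called by limma. TEK, an endothelial receptor, was called higher in 3 of 15 alternatives, among them that without HFCF3. Without NC3, 3 adipocyte genes were called lower, PLIN1, CIDEC and LIPE (adjusted p = 0.0354, 0.0226 and 0.014, limma). The adipocyte sum ran from 37.2 FPKM in NC3 to 244.0 FPKM in NC2 and from 77.0 to 102.2 FPKM in the HFCF pigs. Thus NC3, in which CDH20, CDH11, CDH13, CDH2 and CDH4 had their highest NC values and CDH19 its lowest, also had the lowest adipocyte sum. The part of the macrophage, smooth muscle or adipocyte markers in the differences of CDH20 and CDH11 was not tested.

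**Figure D5:**
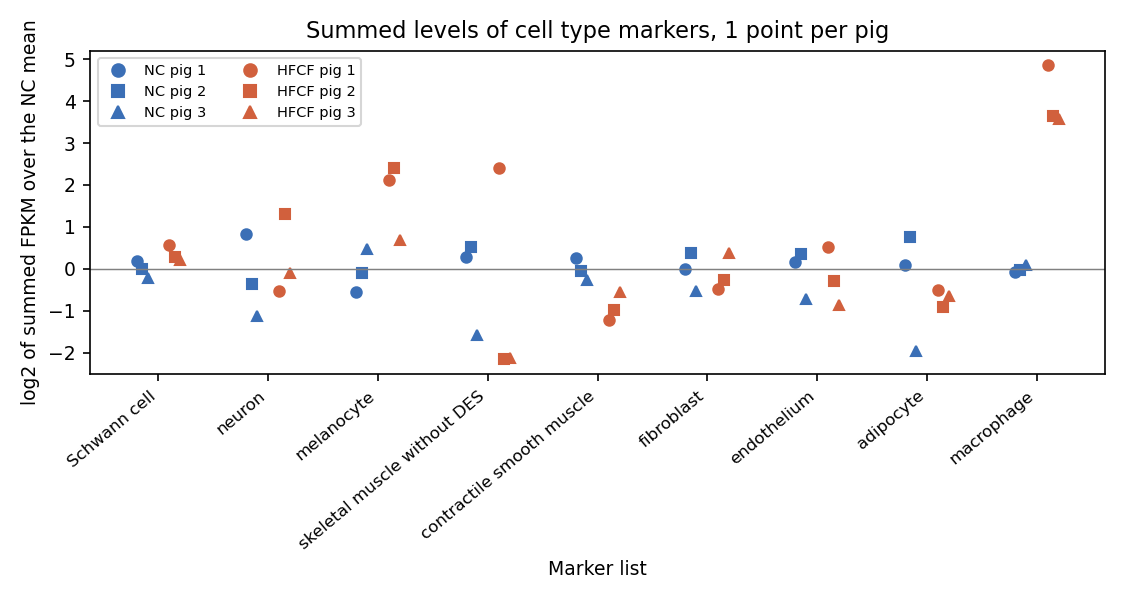
Summed FPKM of each list of cell type markers in each pig, as the log2 of its ratio to the NC mean; the skeletal muscle list is shown without DES. Macrophage and melanocyte sums are higher and contractile smooth muscle sums lower in each HFCF pig than in any NC pig. Schwann cell sums are slightly higher in the HFCF pigs through ERBB3 and L1CAM, without which they overlap.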

How the data were processed

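Total RNA of the abdominal aorta was sequenced with 1 library per pig, 3 NC and 3 HFCF. The authors trimmed reads with cutadapt 1.9, used HISAT2 for alignment and StringTie for assembly, and deposited the FPKM of each gene. The gene annotation behind the table is not given in the sources used here, so no coordinates are printed. A value of 0.0001 FPKM or below was read as 0. Because FPKM is relative, a strong rise of some genes lowers the values of others.

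Values were analysed as log2(FPKM + 0.1) with limma 3.58.1 in R 4.3.3, with diet as the factor, a mean-variance trend in eBayes, and Benjamini-Hochberg adjustment over the 15384 genes with a mean of at least 0.1 FPKM. The script was tested on simulated data. The members, the lists and the rule for named genes (all 8 cadherins; called genes of each list, up to 3 where there were more than 4; up to 2 abundant genes not called; the 5 genes most like CDH20) were chosen with earlier results of these data known. Genes outside this rule, among them CDH7, SOX10, SNAP25, TH, DBH, PMEL, ADIPOR1 and the neighbours of CDH20, were named after their values were seen. Of the 162 listed genes, 145 were matched by name, 5 by gene ID and 12 had no match. Alternatives were other pseudocounts, filters, scalings, eBayes without a trend, a replicate block, the thresholds of the study and each pig left out.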

Additional observations from a re-analysis of the deposited data

How the results depend on the processing

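The count of 0 other cadherins lower held in all 16 alternatives. The count of 1 higher, CDH11, was 0 with the replicate block (log2 difference 1.53, adjusted p = 0.0531, limma) and 0 to 1 with each pig left out. The replicate numbers did not pair the pigs, since deviations of same-numbered pigs had correlations of 0.02, -0.08 and -0.07 across genes, so the block fit is given only here. The log2 difference of CDH20 was -2.13 with pseudocount 1, -7.37 with pseudocount 0.01 and -6.47 after rescaling to TPM, where 0.1 is added on another scale, and it ranged from -5.45 to -4.29 over fits lacking 1 pig. That of CDH2 turned to -0.29 with median-ratio scaling, -0.61 with quantile normalization and -0.23 after rescaling to TPM, and ranged from -0.20 to 0.41 over fits lacking 1 pig. CDH4 turned to -0.11 with median-ratio scaling, -0.26 with quantile normalization and -0.11 after rescaling to TPM. CDH13 ranged from -0.21 to 0.12 over those fits and was -0.44, -0.16 and -0.34 with median-ratio scaling, quantile normalization and TPM. CDH19 ranged from 0.63 to 1.62 over fits lacking 1 pig. Over all tested genes, 3505 were higher and 948 lower. These counts were 2035 and 1982 with median-ratio scaling, 1748 and 1782 with quantile normalization, 2146 and 1539 after rescaling to TPM, and 2232 and 540 with the replicate block. With each pig left out they ranged from 1979 to 2815 and from 442 to 786, the lowest of both without NC1. The median log2 difference of all tested genes was -0.01, -0.07 and 0.07 with the 3 scalings. The causes were not tested. FPKM gives no counts, so whether a value of 0 marks an absent gene cannot be told at this depth.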

Other observations

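Values near 0 in the HFCF group were uncommon among genes with a clear level in the NC group. Of 10232 tested genes with an NC mean of at least 1 FPKM, 10 had an HFCF mean under 0.02 FPKM, and in 3 of these, CDH20 among them, every NC pig had at least 1 FPKM. These limits were chosen after the values of CDH20 were seen, so the counts are a description. Of the genes named CDH with a number, 7 had a mean of at least 1 FPKM in the NC group and 6 in the HFCF group, CDH20 being the difference.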
